A study of Mus musculus with 4 samples.

Results

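The 8 genes described here, Sostdc1, Pou2af1, Tox, Tox2, Ascl2, Sh2d1a, Cd200 and Slamf6, are genes associated with T follicular helper (Tfh) cells other than the receptors and cytokines of that programme. They are 8 of the 18193 genes that a probe set names alone on the array. Every probe set that the platform annotation assigns to exactly 1 of them was used, 16 in all. The group was selected on knowledge of Tfh cells, but Pou2af1, Tox2 and Sostdc1 were chosen by their intensities over these 4 arrays and the rest with those intensities known, so all that follows is a description and carries no test.

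Expression was read in 4 sorted populations of CD4+ T cells. Their donors were mice with GFP knocked into the Foxp3 gene, so that GFP marks cells that express this transcription factor, which defines regulatory T (Treg) cells. Per the labels, 25 male B6/129 F2 mice aged 5 to 8 weeks gave spleen and lymph node suspensions, which were cleared of cells bearing DX5, NK1.1, CD11b, B220 or CD8 and sorted on CD4, GFP and CD25, which is an IL-2 receptor subunit. This gave a pair of Foxp3+ populations, CD25hi Foxp3+ and CD25lo Foxp3+, and a pair of Foxp3- ones, CD25+ Foxp3- and CD25- Foxp3-. All came from Foxp3-GFP knock-in mice, and each was read on 1 Affymetrix Mouse Genome 430 2.0 array. Cells of the mice were pooled, so no group had replicates and differences were judged by size alone. In bulk samples of this kind, fewer cells of a type and less RNA per cell cannot be told apart.

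Tfh cells are CD4+ T cells that enter B cell follicles and help B cells in germinal centres. Their programme rests on the repressor Bcl6 and is opposed by Blimp-1, encoded by Prdm1, and by IL-2 signals through STAT5. A subset of Treg cells, the T follicular regulatory cells, shares much of this programme while expressing Foxp3. The contact of Tfh cells with B cells depends on SAP, the adaptor encoded by Sh2d1a, which binds the tails of SLAM receptors such as Slamf6.

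Promoter sequences from RefSeq (GRCm38.p6) were matched for 5 of the 8 genes, Slamf6, Tox2, Ascl2, Pou2af1 and Cd200. The stretch of 250 bases before the annotated start is shown 5′ to 3′ on the gene's strand for Pou2af1 and Cd200, which both read highest in CD25+ Foxp3- cells, and for Tox2 and Slamf6, which share their order of levels over the 4 populations. Capitals mark matches to a CRE core (TGACGT) or a GC box (GGGCGG) on either strand.
Pou2af1 (chr9:51213440-51213689, plus strand): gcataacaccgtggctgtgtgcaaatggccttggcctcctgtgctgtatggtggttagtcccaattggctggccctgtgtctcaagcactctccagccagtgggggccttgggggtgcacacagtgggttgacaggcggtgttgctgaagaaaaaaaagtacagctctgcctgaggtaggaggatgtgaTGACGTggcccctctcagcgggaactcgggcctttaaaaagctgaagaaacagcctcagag
Cd200 (chr16:45409054-45409303, minus strand): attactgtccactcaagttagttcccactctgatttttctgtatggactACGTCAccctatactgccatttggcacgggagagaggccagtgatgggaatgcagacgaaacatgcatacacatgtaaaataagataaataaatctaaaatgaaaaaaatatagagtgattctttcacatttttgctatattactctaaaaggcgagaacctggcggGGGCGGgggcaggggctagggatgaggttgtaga
Tox2 (chr2:163202877-163203126, plus strand): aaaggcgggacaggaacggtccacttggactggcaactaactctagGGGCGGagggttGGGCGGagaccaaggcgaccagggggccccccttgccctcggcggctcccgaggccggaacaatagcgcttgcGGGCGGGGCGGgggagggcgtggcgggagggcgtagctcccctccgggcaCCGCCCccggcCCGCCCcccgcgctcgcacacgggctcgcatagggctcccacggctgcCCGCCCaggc
Slamf6 (chr1:171917212-171917461, plus strand): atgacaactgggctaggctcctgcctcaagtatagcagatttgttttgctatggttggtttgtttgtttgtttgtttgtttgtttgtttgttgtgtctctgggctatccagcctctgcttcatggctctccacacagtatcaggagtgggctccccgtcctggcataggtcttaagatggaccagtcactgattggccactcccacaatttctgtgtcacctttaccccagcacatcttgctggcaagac

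The Pou2af1 stretch held 1 CRE core, 61 to 56 bases before the start, and the Cd200 stretch held 1 on the other strand, 201 to 196 bases before it. Of 32851 such stretches in RefSeq, 6.47% held a CRE core. Cd200 also held 1 GC box, and the first of the 5 annotated Tox2 starts had 7, of which a neighbouring pair overlap by 1 base. The other Tox2 starts had 3, 0, 1 and 1. A GC box was present in 32.7% of all stretches. None of the 9 stretches of the 5 genes held the octamer ATGCAAAT (1.6% of all stretches), the forkhead core TGTTTAC (3.17%), the STAT motif TTCNNNGAA (7.02%) or the E-box CAGCTG (13%), each searched on both strands. The Slamf6 stretch held none of the 6 motifs. These are matches of letters and say nothing of binding.

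The deposited values are intensities on a linear scale. Values below 10.1, the 40th percentile of all values, were set to that floor, and a probe set counted as measured where its highest value reached 32.5, the 60th percentile. A gene with several measured probe sets was read from the brightest, which left 9625 measured genes. The arrays had medians between 15.03 and 15.6. Foxp3 itself read 1308 in the CD25hi Foxp3+, 1117 in the CD25lo Foxp3+, 16.8 in the CD25+ Foxp3- and 17.6 in the CD25- Foxp3- population. Il2ra, the CD25 gene, read 1562 in the CD25hi Foxp3+, 288 in the CD25lo Foxp3+, 283 in the CD25+ Foxp3- and 22.3 in the CD25- Foxp3- population, so that it was nearly equal in the middle pair. All 8 measured T cell markers, among them Cd3e, Cd3d and Cd4, reached the filter in all 4 arrays.

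Of the 8 genes, 7 were measured, through 12 of the 16 probe sets. Ascl2, which encodes a helix-loop-helix factor able to start the Tfh programme, was under the filter on all 3 of its probe sets. Its highest reading was 15.6, in CD25- Foxp3- cells, so these arrays give no level for it. Sostdc1 passed the filter only through the Foxp3- arrays, and the other 6 genes reached it in all 4 populations.

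**Figure D1:**
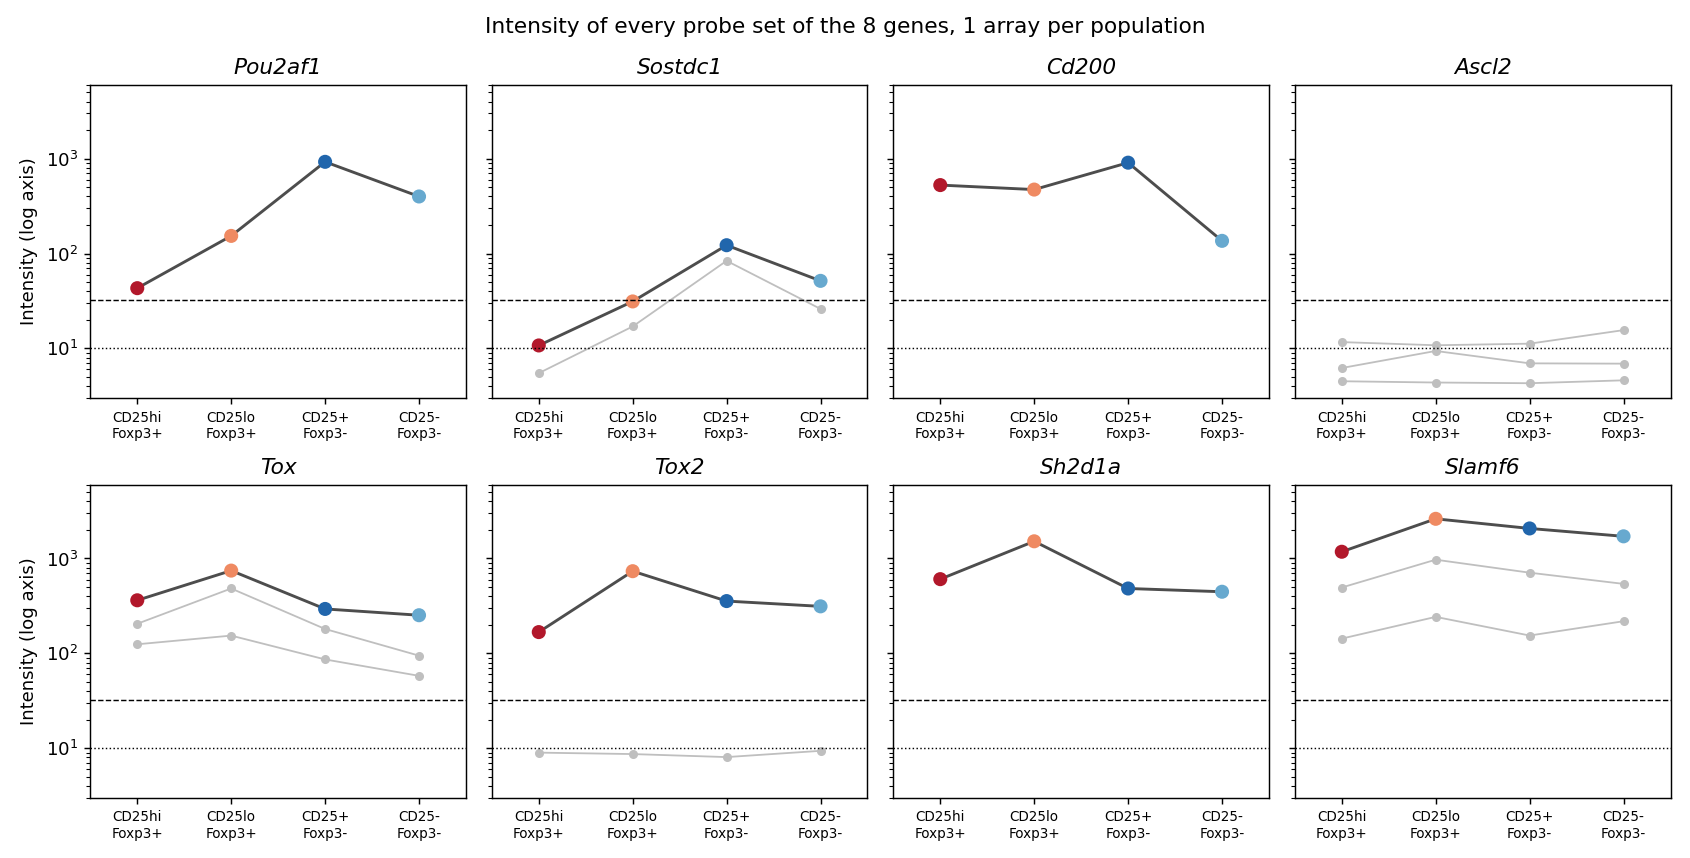
Intensity on a log axis of all 16 probe sets of the 8 genes in the 4 populations, 1 point per array. Coloured points joined by a dark line are the probe set read for the gene, grey points its other probe sets, the dotted line the floor of 10.1 and the dashed line the filter intensity of 32.5. Pou2af1, Sostdc1 and Cd200 peaked in CD25+ Foxp3- cells, and Tox, Tox2, Sh2d1a and Slamf6 in CD25lo Foxp3+ cells.

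The measured genes fell into a set of 3 that read highest in CD25+ Foxp3- cells and a set of 4 that read highest in CD25lo Foxp3+ cells. The first set was Pou2af1, Sostdc1 and Cd200. The second was Tox, Tox2, Sh2d1a and Slamf6. Over all measured genes, 30.1% read highest in CD25+ Foxp3- and 21.5% in CD25lo Foxp3+ cells. CD25hi Foxp3+ cells gave the lowest reading of 4 of the 7 genes, Pou2af1, Sostdc1, Tox2 and Slamf6, where 13.6% of all measured genes read lowest. Tox, Tox2 and Sh2d1a stood at least 2-fold above every other population in CD25lo Foxp3+ cells, as did 1.05% of all measured genes.

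Tox and Tox2 encode related nuclear proteins of the HMG-box family. Tox is needed in the thymus for the CD4 T cell lineage, and Tox2 promotes Tfh development in mice. The brightest Tox probe set read 363 in the CD25hi Foxp3+, 745 in the CD25lo Foxp3+, 294 in the CD25+ Foxp3- and 252 in the CD25- Foxp3- population. CD25lo Foxp3+ cells thus stood 2.06-fold above the next population, and the other 3 populations lay within 1.44-fold of each other. The second Tox probe set read 205 in the CD25hi Foxp3+, 483 in the CD25lo Foxp3+, 181 in the CD25+ Foxp3- and 94.5 in the CD25- Foxp3- population. The third read 125 in the CD25hi Foxp3+, 154 in the CD25lo Foxp3+, 86.2 in the CD25+ Foxp3- and 57.9 in the CD25- Foxp3- population. All 3 gave the same order of the populations, but they differed in size: CD25lo Foxp3+ over CD25- Foxp3- cells was 2.95-fold, 5.11-fold and 2.66-fold from the brightest to the dimmest. CD25hi Foxp3+ cells were 2.06-fold, 2.35-fold and 1.23-fold below CD25lo Foxp3+ cells on the same probe sets, so the dimmest missed 2-fold.

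Tox2 read 168 in the CD25hi Foxp3+, 735 in the CD25lo Foxp3+, 356 in the CD25+ Foxp3- and 313 in the CD25- Foxp3- population. Among the 7 genes it had the largest difference within the Foxp3+ pair, 4.39-fold lower in CD25hi than in CD25lo Foxp3+ cells. Its Foxp3- readings lay 1.14-fold apart. A second Tox2 probe set read between 8.06 and 9.38 on the 4 arrays, all under the floor, so the Tox2 values rest on 1 probe set. Of the relatives, Tox4 read between 727 and 1008 and no pair of populations was 2-fold apart, while Tox3 stayed under the filter with a highest reading of 5.82.

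Sh2d1a, the gene of SAP, read 606 in the CD25hi Foxp3+, 1518 in the CD25lo Foxp3+, 483 in the CD25+ Foxp3- and 446 in the CD25- Foxp3- population. CD25lo Foxp3+ cells stood 2.51-fold above CD25hi Foxp3+ cells, the next in order, and the neighbours below were 1.255-fold and 1.08-fold apart. Sh2d1a has a single probe set.

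Slamf6 encodes Ly108, a SLAM receptor that binds itself on neighbouring cells and signals through SAP. Its brightest probe set read 1178 in the CD25hi Foxp3+, 2620 in the CD25lo Foxp3+, 2074 in the CD25+ Foxp3- and 1713 in the CD25- Foxp3- population. The second read 494 in the CD25hi Foxp3+, 971 in the CD25lo Foxp3+, 708 in the CD25+ Foxp3- and 540 in the CD25- Foxp3- population. Both gave the same order, with CD25lo Foxp3+ cells highest and CD25hi Foxp3+ cells lowest. The third and dimmest read 143 in the CD25hi Foxp3+, 242 in the CD25lo Foxp3+, 154 in the CD25+ Foxp3- and 218 in the CD25- Foxp3- population, with the same extremes and the Foxp3- pair in the other order. CD25hi Foxp3+ cells were 2.22-fold, 1.96-fold and 1.695-fold below CD25lo Foxp3+ cells on the 3 probe sets, so only the brightest passed 2-fold. Slamf6 varied least of the 7 genes, 2.22-fold from its lowest to its highest population.

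Pou2af1 encodes OBF-1 (also Bob1), a coactivator that joins the Oct factors on DNA, is typical of the B cell lineage and is needed in mice for germinal centres. It read 43.2 in the CD25hi Foxp3+, 154 in the CD25lo Foxp3+, 928 in the CD25+ Foxp3- and 400.1 in the CD25- Foxp3- population. The 4 populations were spread over 21.5-fold, the widest range of the 7 genes, and each stood at least 2.32-fold from its neighbour in the order. Both Foxp3+ arrays lay below both Foxp3- arrays, by a gap of 2.60-fold. Its partner gene Pou2f2 (Oct-2) read 46.6 in the CD25hi Foxp3+, 42.6 in the CD25lo Foxp3+, 35.7 in the CD25+ Foxp3- and 25.6 in the CD25- Foxp3- population, with no pair of populations 2-fold apart.

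Sostdc1 encodes a secreted antagonist of BMP and Wnt signalling. It read 10.8 in the CD25hi Foxp3+, 31.3 in the CD25lo Foxp3+, 123 in the CD25+ Foxp3- and 51.6 in the CD25- Foxp3- population. The CD25hi reading is barely above the floor, so folds against it are uncertain in size. A second probe set read 5.49 in the CD25hi Foxp3+, 17.0 in the CD25lo Foxp3+, 83.9 in the CD25+ Foxp3- and 26.1 in the CD25- Foxp3- population. Both probe sets gave the order of Pou2af1, with a gap between the Foxp3+ and the Foxp3- pair of 1.65-fold on the brighter and 1.53-fold on the dimmer. That order was found in 2.54% of all measured genes. As Pou2af1 and Sostdc1 were picked by their intensities over these arrays, that share is no test of them.

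Cd200 encodes a surface glycoprotein that restrains myeloid cells through its receptor Cd200r1 and is found on Tfh cells and B cells. It read 528 in the CD25hi Foxp3+, 473 in the CD25lo Foxp3+, 909 in the CD25+ Foxp3- and 136 in the CD25- Foxp3- population. All 3 populations with CD25 stood above CD25- Foxp3- cells, by 3.47-fold at the least, and the Foxp3+ pair lay only 1.12-fold apart. Cd200 is thus the 1 measured gene of the 7 with no 2-fold difference between CD25hi and CD25lo Foxp3+ cells. The receptor gene Cd200r1 read 147 in the CD25hi Foxp3+, 275 in the CD25lo Foxp3+, 100.1 in the CD25+ Foxp3- and 66.1 in the CD25- Foxp3- population.

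The comparison of CD25hi with CD25lo cells asks how the Foxp3+ cells vary with the level of CD25. There, 6 of the 7 measured genes read at least 2-fold lower in CD25hi Foxp3+ cells and none at least 2-fold higher. Over all measured genes, 2.51% were lower and 3.21% higher by that rule. The folds ran from 2.06 for Tox and 2.22 for Slamf6 through 2.51 for Sh2d1a, 2.91 for Sostdc1 and 3.56 for Pou2af1 to 4.39 for Tox2. Of the 4 measured genes not recorded as picked for their pattern, 3 were lower, Tox, Sh2d1a and Slamf6. The median log2 difference was -1.33 over the 7 genes and 0.05 over all measured genes. Both Foxp3+ readings of Sostdc1 were under the filter intensity, and its dimmer probe set gave 1.68-fold. Without Sostdc1 the count was 5 of 6, with a median of -1.24. For scale, 4426 measured genes had several measured probe sets, and the widest difference between the folds of 1 gene's probe sets in this comparison had a median of 1.27-fold and a 90th percentile of 1.89-fold. That covers the probe sets but not the spread between arrays or sorts, which was not measured.

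**Figure D2:**
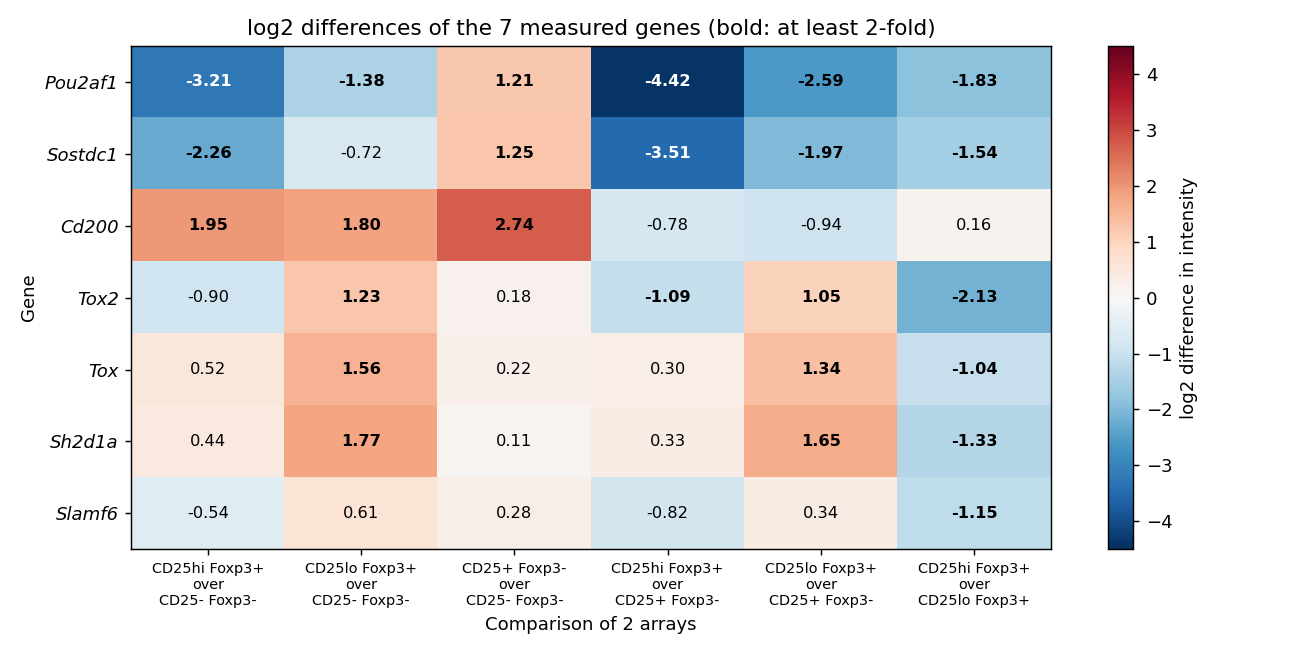
log2 differences in intensity of the 7 measured genes (rows) in the 6 comparisons of 2 arrays (columns, first-named population over the second), with values of at least 2-fold in bold. The last column is negative for 6 genes, from -1.04 for Tox to -2.13 for Tox2, and 0.16 for Cd200.

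Against CD25- Foxp3- cells, CD25hi Foxp3+ cells had 1 of the 7 genes at least 2-fold higher, Cd200 at 3.87-fold, and 2 lower, Pou2af1 at 9.26-fold and Sostdc1 at 4.80-fold. All measured genes gave 7.09% higher and 3.74% lower. Of the 7 genes, 4 were at least 2-fold higher in CD25lo Foxp3+ than in CD25- Foxp3- cells, against 9.1% of all measured genes. These were Cd200 at 3.47-fold, Sh2d1a at 3.40-fold, Tox at 2.95-fold and Tox2 at 2.35-fold. Pou2af1 was 2.60-fold lower, as were 6.88% of all measured genes by at least 2-fold. Both comparisons share the CD25- Foxp3- array. The median log2 difference of the 7 genes was -0.54 for CD25hi Foxp3+ and 1.23 for CD25lo Foxp3+ cells, with 0.02 and -0.05 over all measured genes.

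Among Foxp3- cells, CD25+ cells had 3 of the 7 genes at least 2-fold higher than CD25- cells and none lower, against 12.1% and 6.43% of all measured genes. Cd200 was 6.67-fold, Sostdc1 2.38-fold and Pou2af1 2.32-fold higher. On the probe sets read for them, Tox, Tox2, Sh2d1a and Slamf6 lay between 1.08-fold and 1.21-fold higher. That is less than the median disagreement of 1.51-fold between probe sets of the same gene in this comparison. The other Tox probe sets were 1.91-fold and 1.49-fold higher, and the other Slamf6 ones 1.31-fold higher and 1.42-fold lower.

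CD25hi Foxp3+ and CD25+ Foxp3- cells both bear CD25, but they differed 5.53-fold in Il2ra as well as in Foxp3. Pou2af1 was 21.5-fold, Sostdc1 11.4-fold and Tox2 2.12-fold lower in CD25hi Foxp3+ cells and none of the 7 was at least 2-fold higher, with 6.84% of all measured genes lower and 4.82% higher. CD25lo Foxp3+ cells, whose Il2ra reading matched that of CD25+ Foxp3- cells, had Sh2d1a 3.14-fold, Tox 2.54-fold and Tox2 2.07-fold higher than those cells. They had Pou2af1 6.04-fold and Sostdc1 3.91-fold lower. All measured genes gave 5.17% higher and 9.04% lower.

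Taking both Foxp3+ against both Foxp3- arrays, 2 of the 7 genes were separated by a gap of at least 1.5-fold, Pou2af1 and Sostdc1, both lower in Foxp3+ cells. By that rule 1.93% of all measured genes were lower and 2.79% higher. Pou2af1 and Sostdc1 had been picked by their intensities over these arrays, so the count is no test of them. None of the 4 measured genes not recorded as picked was separated. Sostdc1 passed the filter only through its Foxp3- arrays, so its direction here follows from the filter. Tox and Sh2d1a also read higher in both Foxp3+ arrays, with gaps of 1.23-fold and 1.255-fold that miss the rule.

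The difference with CD25 therefore did not run alike in the Foxp3+ and the Foxp3- pair. Pou2af1 and Sostdc1 were lower with more CD25 among Foxp3+ cells and higher with CD25 among Foxp3- cells, each by more than 1.5-fold, a pattern of 3.81% of all measured genes. Both genes had been picked by their intensities over these arrays, so that share is no test of them. The opposite pattern was met by none of the 7 and by 2.56% of all measured genes. On the probe sets read for them, Tox, Tox2, Sh2d1a and Slamf6 differed within the Foxp3+ pair alone at 2-fold, and Cd200 within the Foxp3- pair alone. The dimmest Tox probe set and the other Slamf6 ones missed 2-fold within the Foxp3+ pair. How many of all measured genes differed within a single pair was not counted. With 1 array a population these differences of differences could not be tested.

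**Figure D3:**
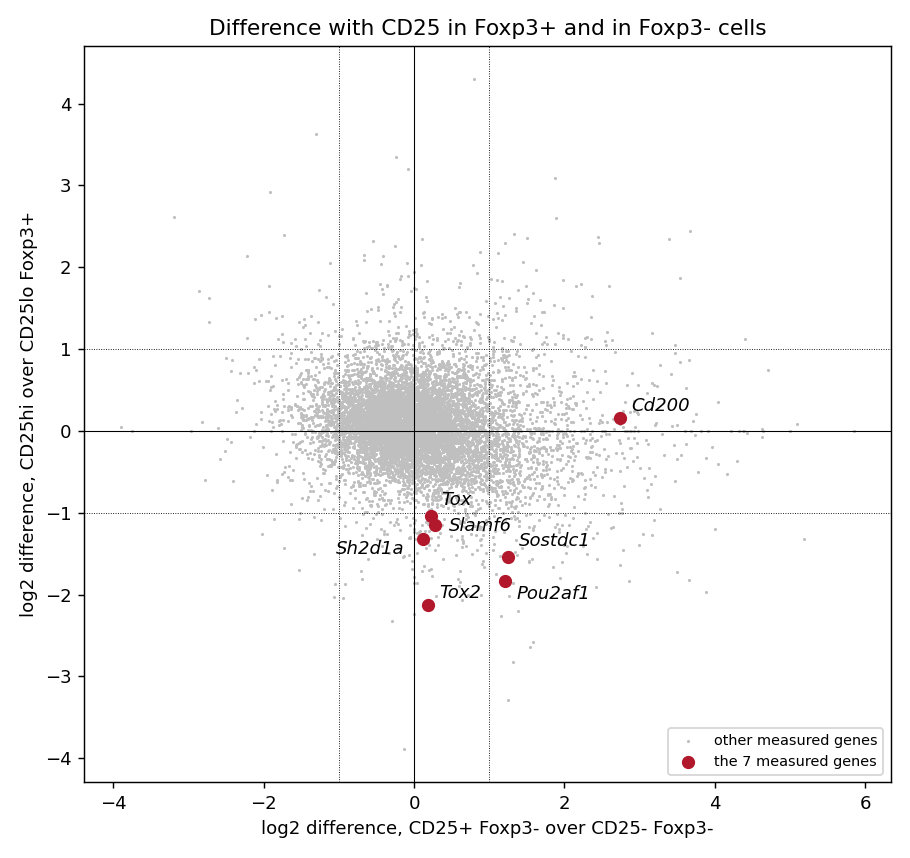
log2 difference between CD25hi and CD25lo Foxp3+ cells (vertical axis) against that between CD25+ and CD25- Foxp3- cells (horizontal axis), for the 7 measured genes (red) and all other measured genes (grey), with dotted lines at 2-fold. Pou2af1 (-1.83 and 1.21) and Sostdc1 (-1.54 and 1.248) lie at lower right, Cd200 (0.16 and 2.74) at far right, and the other 4 genes near 0 on the horizontal axis and below -1 on the vertical one.

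The receptors, cytokines and transcription factors of the Tfh programme followed neither set as a whole. Of 26 measured genes on these lists, 9 read highest in the CD25lo Foxp3+ and 8 in the CD25+ Foxp3- population, and the others in CD25hi Foxp3+ or CD25- Foxp3- cells. Over all measured genes, 21.5% read highest in CD25lo Foxp3+ and 30.1% in CD25+ Foxp3- cells, so the count of 8 is near its share. The 9 were Cxcr5, Pdcd1, Icos, P2rx7, Cd28, Cxcr4, Maf, Batf and Nfatc2. Cxcr5, the chemokine receptor that leads Tfh cells into follicles, read 402 in the CD25hi Foxp3+, 992 in the CD25lo Foxp3+, 335 in the CD25+ Foxp3- and 286 in the CD25- Foxp3- population. Pdcd1, the gene of the inhibitory receptor PD-1, read 242 in the CD25hi Foxp3+, 569 in the CD25lo Foxp3+, 367 in the CD25+ Foxp3- and 160 in the CD25- Foxp3- population. Both were chosen after their values were seen, as the receptors that most define Tfh cells. Icos, a costimulatory receptor, read 7042 in the CD25hi Foxp3+, 10804 in the CD25lo Foxp3+, 5473 in the CD25+ Foxp3- and 2574 in the CD25- Foxp3- population.

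The cytokine genes Il21 and Il4 read highest in CD25+ Foxp3- cells, as did Pou2af1 and Sostdc1. Il21, which drives B cell help, read 15.3 in the CD25hi Foxp3+, 59.8 in the CD25lo Foxp3+, 1794 in the CD25+ Foxp3- and 122 in the CD25- Foxp3- population. Il4 read 11.2 in the CD25hi Foxp3+, 10.8 in the CD25lo Foxp3+, 145 in the CD25+ Foxp3- and 72.0 in the CD25- Foxp3- population. Both cytokines were lower in both Foxp3+ arrays than in both Foxp3- arrays, with gaps past 1.5-fold. Il4 passed the filter only through its Foxp3- arrays, so its direction here follows from the filter. Tnfrsf4 (OX40) and Izumo1r (folate receptor 4) were the 2 of 17 receptors and cytokines higher in both Foxp3+ arrays by such a gap. Over all measured genes, 2.79% were higher and 1.93% lower by that rule.

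Between CD25hi and CD25lo Foxp3+ cells, 3 of the 17 receptors and cytokines were at least 2-fold lower, Cxcr5, Pdcd1 and Il21, and 1 higher, Tnfsf8. Of the 9 measured factors 2 were lower, Bcl6 and Maf, and none higher. Over all measured genes, 2.51% were lower and 3.21% higher. Bcl6 read 183 in the CD25hi Foxp3+, 465 in the CD25lo Foxp3+, 476 in the CD25+ Foxp3- and 302 in the CD25- Foxp3- population. Maf, which promotes Il21 and Il4 in T cells, read 1942 in the CD25hi Foxp3+, 6040 in the CD25lo Foxp3+, 3904 in the CD25+ Foxp3- and 585 in the CD25- Foxp3- population. The median log2 difference was -0.47 for the receptors and cytokines and 0.02 for the factors.

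**Figure D4:**
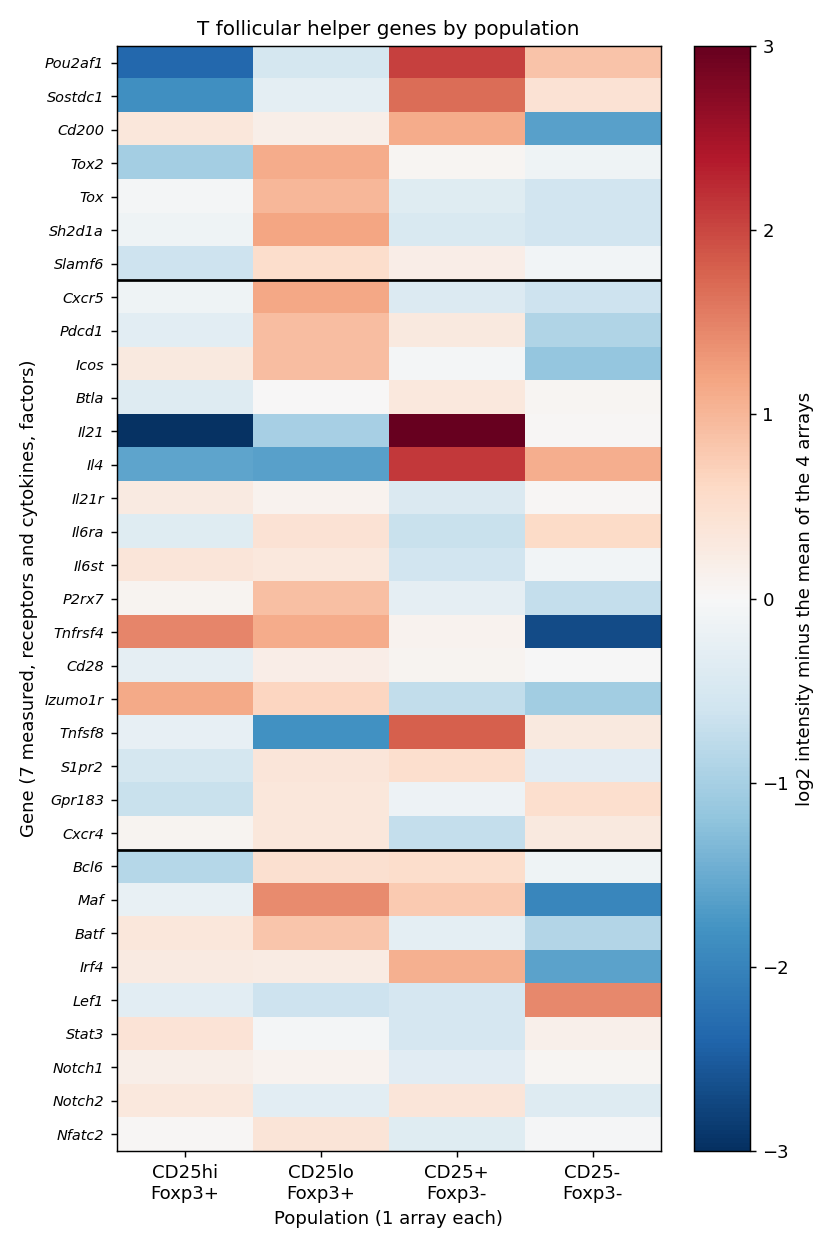
log2 intensity minus the mean of the 4 arrays, by population, for the 7 measured genes (top block), 17 receptors and cytokines (middle) and 9 transcription factors (bottom). Values beyond 3 in size take the end colour. The CD25lo Foxp3+ column is above the mean for Tox, Tox2, Sh2d1a, Slamf6, Cxcr5, Pdcd1, Icos and Maf, and the CD25+ Foxp3- column for Pou2af1, Sostdc1, Cd200, Il21 and Il4.

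Genes known to oppose the Tfh programme, or to be lost in Tfh cells, did not run opposite to the 7 genes as a group. Of 14 measured, 1 was at least 2-fold higher in CD25hi than in CD25lo Foxp3+ cells, the lymph node homing receptor Ccr7, and 2 were lower, Prdm1 and Tbx21. All measured genes gave 3.21% higher and 2.51% lower. Prdm1 read 280 in the CD25hi Foxp3+, 627 in the CD25lo Foxp3+, 74.7 in the CD25+ Foxp3- and 41.2 in the CD25- Foxp3- population. The gene of Blimp-1 was thus highest in the same population as Tox, Tox2, Sh2d1a and Slamf6. Id2, an inhibitor of E proteins, read 970.4 in the CD25hi Foxp3+, 1589 in the CD25lo Foxp3+, 9203 in the CD25+ Foxp3- and 2858 in the CD25- Foxp3- population. Klf2, a factor of resting T cells, read 1908 in the CD25hi Foxp3+, 1267 in the CD25lo Foxp3+, 697 in the CD25+ Foxp3- and 3040 in the CD25- Foxp3- population.

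The other SLAM receptors and SAP partners varied less over the 4 populations than Sh2d1a, apart from Cd244a and Slamf1. Of 10 measured, 1 was at least 2-fold lower in CD25hi than in CD25lo Foxp3+ cells, Cd244a (2B4), and none higher. All measured genes gave 2.51% lower and 3.21% higher. Cd244a was at the floor in CD25hi Foxp3+ cells and read 63.1 in the CD25lo Foxp3+, 41.4 in the CD25+ Foxp3- and 14.2 in the CD25- Foxp3- population. Slamf1 read 1077 in the CD25hi Foxp3+, 1312 in the CD25lo Foxp3+, 727 in the CD25+ Foxp3- and 376 in the CD25- Foxp3- population, higher with Foxp3 but by a gap of less than 1.5-fold. The kinase Fyn, which SAP recruits, read between 4955 and 6284 in the 4 populations.

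Genes most like Pou2af1, Tox2 and Sostdc1 were sought by the root mean square difference of log2 intensities over the 4 arrays, each gene centred on its own mean. Nearest to Pou2af1 were the MHC class II genes H2-Aa (0.22) and H2-Ab1 (0.33), the granzyme gene Gzmk (0.35) and then Sostdc1 (0.41). Nearest to Sostdc1 were H2-Eb1 (0.21), H2-Ab1 (0.29) and Ctla2b (0.33), with Pou2af1 ninth at 0.41. Ctla2b passed the filter only in CD25+ Foxp3- cells, so its highest population follows from the filter, and both Foxp3+ readings of Sostdc1 were under the filter intensity. Nearest to Tox2 were Esm1 (0.15), Rnf125 (0.22) and Mettl7a1 (0.23), after passing over 2 genes known by clone symbols, and Slamf6 was the nearest of the 7 genes at 0.36. With 4 arrays such likeness describes these arrays only.

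Since Pou2af1 is typical of B cells, markers of that lineage were read beside it. MHC class II genes moved with Pou2af1 and Sostdc1: H2-Aa read 132 in the CD25hi Foxp3+, 375 in the CD25lo Foxp3+, 1877 in the CD25+ Foxp3- and 1098 in the CD25- Foxp3- population. Of the 7 other measured B cell markers, Blk alone kept that order, at 10.1, the floor, in the CD25hi Foxp3+, 17.7 in the CD25lo Foxp3+, 46.3 in the CD25+ Foxp3- and 20.03 in the CD25- Foxp3- population. Blk passed the filter only in CD25+ Foxp3- cells, so its highest population follows from the filter. Cd22 shared the highest and the lowest population with Pou2af1, at 14.0 in the CD25hi Foxp3+, 40.3 in the CD25lo Foxp3+, 81.4 in the CD25+ Foxp3- and 31.6 in the CD25- Foxp3- population. Ms4a1 (CD20) read 15.9 in the CD25hi Foxp3+, 24.7 in the CD25lo Foxp3+, 66.7 in the CD25+ Foxp3- and 145 in the CD25- Foxp3- population. It passed the filter only through its Foxp3- arrays, so its direction between the Foxp3 states follows from the filter. Cd79b read 97.2 in the CD25hi Foxp3+, 118 in the CD25lo Foxp3+, 58.4 in the CD25+ Foxp3- and 69.2 in the CD25- Foxp3- population. Of 17 B cell markers with a probe set, 7 were under the filter in every array, namely Cd79a, Pax5, Ebf1, Cr2, Fcer2a, Spib and Vpreb3, with readings between 4.48 and 29.0.

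The summed intensity of the 17 markers was 773 in the CD25hi Foxp3+, 1528 in the CD25lo Foxp3+, 3743 in the CD25+ Foxp3- and 2509 in the CD25- Foxp3- population. Without the 3 MHC class II genes it was 494 in the CD25hi Foxp3+, 804 in the CD25lo Foxp3+, 464 in the CD25+ Foxp3- and 568 in the CD25- Foxp3- population, a split made after the values were seen. Fcmr, an Fc receptor gene for IgM, was the largest part of that sum in CD25lo Foxp3+ cells, at 199 in the CD25hi Foxp3+, 479 in the CD25lo Foxp3+, 40.3 in the CD25+ Foxp3- and 65.0 in the CD25- Foxp3- population. With Fcmr left out too, the other 13 markers summed to 295 in the CD25hi Foxp3+, 325 in the CD25lo Foxp3+, 424 in the CD25+ Foxp3- and 503 in the CD25- Foxp3- population. Both Foxp3+ sums thus lay below both Foxp3- sums, but by a gap of less than 1.5-fold. Of these markers, Ms4a1 and Ly86 passed the filter only through Foxp3- arrays, and Cd79b ran the other way. Among 5 measured plasma cell markers, Jchain, Sdc1 and Mzb1 were lower in both Foxp3+ arrays by a gap of at least 1.5-fold. Sdc1 passed the filter only in CD25+ Foxp3- cells, so its direction follows from the filter. Jchain read 558 in the CD25hi Foxp3+, 1021 in the CD25lo Foxp3+, 3092 in the CD25+ Foxp3- and 1940 in the CD25- Foxp3- population, the order of Pou2af1. Mzb1 read 34.8 in the CD25hi Foxp3+, 34.9 in the CD25lo Foxp3+, 179 in the CD25+ Foxp3- and 414 in the CD25- Foxp3- population. The 8 plasma cell markers with a probe set summed to 11364 in the CD25hi Foxp3+, 12571 in the CD25lo Foxp3+, 15861 in the CD25+ Foxp3- and 18082 in the CD25- Foxp3- population, with Ighm the largest part. The part of RNA from B lineage cells in the Pou2af1 reading was not tested.

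**Figure D5:**
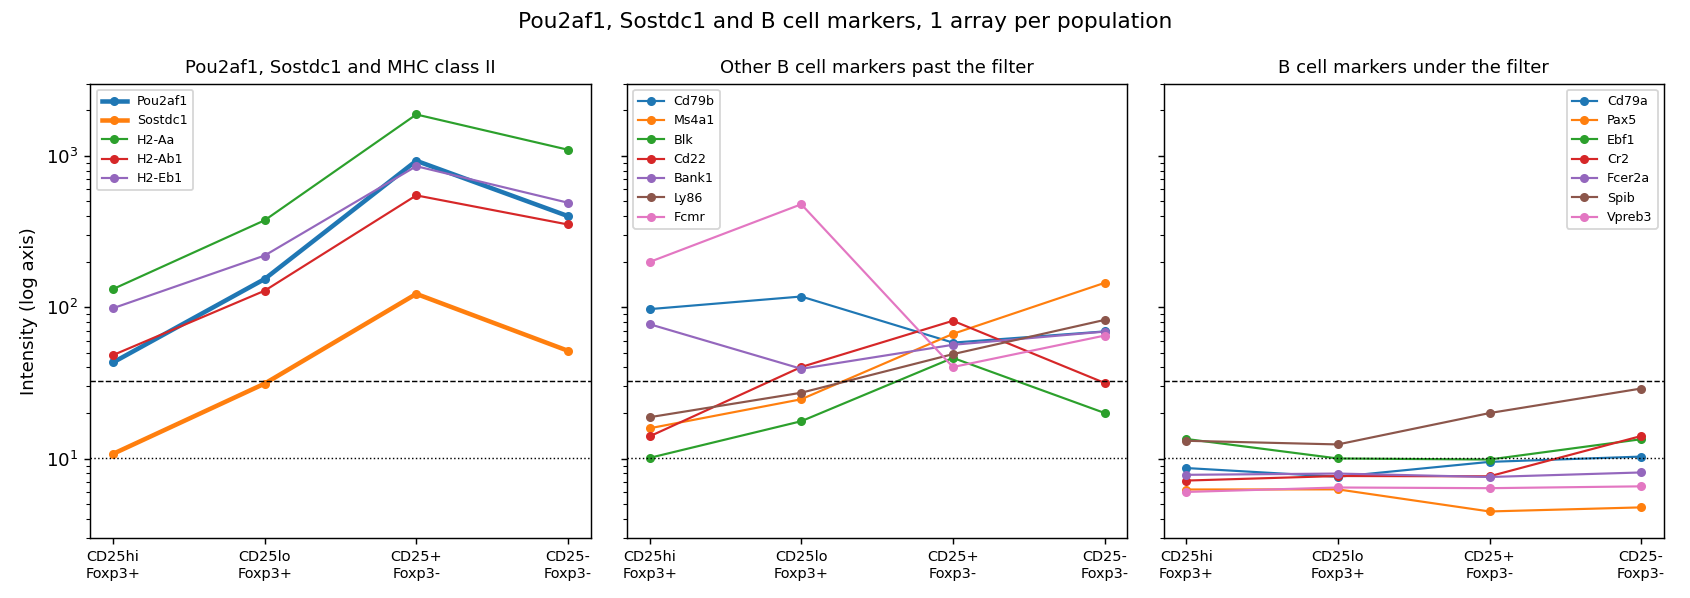
Intensity on a log axis by population, 1 array each, of Pou2af1, Sostdc1 and 3 MHC class II genes (left), 7 other B cell markers past the filter (middle) and 7 B cell markers under it (right), with the floor (dotted) and the filter intensity (dashed). The 5 genes of the left panel have 1 order of the populations, which Blk alone shares in the middle panel. Blk passed the filter only in CD25+ Foxp3- cells. The readings of the right panel lie between 4.48 and 29.0.

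Markers of further cell types also differed between the Foxp3 states. Lower in both Foxp3+ than in both Foxp3- arrays by a gap of at least 1.5-fold were 9 of 11 measured markers of NK and CD8 T cells, 2 of 9 of myeloid and dendritic cells and 1 of 2 of gamma delta T and NKT cells, against 1.93% of all measured genes, and none of these was higher by that rule. Of those counted, Klrk1, Klrc1 and Zbtb16 passed the filter only through a Foxp3- array, so their direction follows from the filter. The summed intensity of the markers was 686 in the CD25hi Foxp3+, 739 in the CD25lo Foxp3+, 2631 in the CD25+ Foxp3- and 2601 in the CD25- Foxp3- population for CD8 T and NK cells, and 45.4 in the CD25hi Foxp3+, 63.1 in the CD25lo Foxp3+, 84.8 in the CD25+ Foxp3- and 54.9 in the CD25- Foxp3- population for gamma delta T and NKT cells. For myeloid and dendritic cells it was 1205 in the CD25hi Foxp3+, 1492 in the CD25lo Foxp3+, 1591 in the CD25+ Foxp3- and 1813 in the CD25- Foxp3- population, and Cd14, Itgax and Itgam were near or under the floor in all 4. The 8 T cell markers summed to 42037 in the CD25hi Foxp3+, 44376 in the CD25lo Foxp3+, 27890 in the CD25+ Foxp3- and 41947 in the CD25- Foxp3- population, lowest where Pou2af1, Sostdc1 and Cd200 read highest. Cd2 was 2.82-fold higher in CD25hi and 2.78-fold higher in CD25lo Foxp3+ than in CD25+ Foxp3- cells, and no other T cell marker was 2-fold apart in any of the 6 comparisons of 2 arrays. The part of all these markers in the differences of the 7 genes was not tested.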

How the data were processed

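The authors deposited 1 intensity per probe set and array on a linear scale, as read from the values themselves, for 45101 probe sets of the Affymetrix Mouse Genome 430 2.0 array. Per the labels' protocols, total RNA was amplified in 2 cycles of in vitro transcription. The sources used here do not give how probes were summarised, background corrected and normalized, and scanner files were not used here. The 4 columns were kept on the deposited scale, since their medians lay between 15.03 and 15.6. Control probe sets, 64 in all, were left out.

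The platform's annotation named 1 gene for 34945 probe sets, several for 932 and none for 9160. Of the first, 34741 matched the RefSeq table (GRCm38.p6) by Entrez identifier, which changed no symbol. The floor, filter and choice of probe set are those given with the results. Differences are of log2 intensity, and depth does not apply to arrays, whose number limits the precision. Groups came from the sample titles.

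Each group had 1 array, so no test was made: a gene counted at 2-fold or more between 2 arrays, or at a gap of 1.5-fold between both Foxp3+ and both Foxp3- arrays, and its share is set beside that of all measured genes. The genes, lists and rules were chosen with earlier results of these data known. Up to 6 genes of each list with the widest differences were open to naming. Genes named outside that, among them Cxcr5, Pdcd1, Cd79b, Fyn, Tox4 and Pou2f2, were chosen after their values were seen. Floor, filter, probe set choice, scaling and fold were varied, as given in the closing section. The counting rules were also run on simulated data with known folds, which checks the code and not the counts reported here. Python 3.11.15, pandas 2.3.3, numpy 2.4.6 and matplotlib 3.10.9 were used.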

Additional observations from a re-analysis of the deposited data

Results flagged for a closer look

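Pou2af1 and Sostdc1 stood out because the difference with CD25 ran in opposite directions in Foxp3+ and Foxp3- cells. Both had been picked by their intensities over these arrays. For Pou2af1 the log2 difference was -1.83 for CD25hi over CD25lo Foxp3+ cells and 1.21 for CD25+ over CD25- Foxp3- cells, a difference of differences of -3.04. For Sostdc1 the values were -1.54 and 1.248, a difference of differences of -2.79, with both Foxp3+ readings under the filter intensity. These differences rest on 1 array a population and were not tested. The CD25lo gate takes cells with less CD25 and the CD25- gate cells without it, so the 2 contrasts do not span the same range of CD25.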

How the results depend on the processing

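No paired analysis was possible because each population has 1 array and the labels give no replicate numbers. A floor at the 20th percentile, no floor, no filter and quantile normalization left every count of members in the 7 comparisons as reported. Reading genes from the median of all probe sets changed 5 of those counts by 1 gene each: CD25hi Foxp3+ over CD25- Foxp3- gained Tox, and Tox2 or Slamf6 was lost in the other 4. There the log2 difference of CD25lo Foxp3+ over CD25- Foxp3- cells was 2.35 for Tox and 0.62 for Tox2, against 1.56 and 1.23 on the brightest probe set. The Tox2 median takes in a probe set under the floor. At 1.5-fold, 5 members were lower in CD25hi Foxp3+ cells when set against CD25+ Foxp3- cells, and 3 at 2-fold, where 30.3% of all measured genes differed in either direction at 1.5-fold. At 3-fold the count was 2 of 7 for CD25hi over CD25lo Foxp3+ (Pou2af1 and Tox2, with 1.33% of all measured genes in either direction), 2 for CD25lo Foxp3+ over CD25- Foxp3- (6.26%), 3 for CD25lo Foxp3+ over CD25+ Foxp3- (5.29%) and 1 for CD25+ over CD25- Foxp3- cells (6.44%). At a gap of 2-fold, 1 member, Pou2af1, separated both Foxp3+ from both Foxp3- arrays, as did 2.15% of all measured genes. No member's difference past its threshold changed sign under any of these alternatives. Readings near the floor (Sostdc1 in CD25hi Foxp3+ cells, Ascl2 throughout) limit what signal over background can show.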
